A study of Mus musculus with 6 samples.

Results

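The genes described are 10 transcription factors that specify and commit cells to the T lineage: Gata3, Bcl11b, Runx1, Runx3, Cbfb, Satb1, Sox4, Myb, Gfi1 and Ets1. Members were taken by gene symbol, as every probe set that the platform annotation assigns to exactly 1 of these symbols. This gave 35 of the 45037 probe sets tested, for 10 of 18193 named genes. Affymetrix Mouse Genome 430 2.0 arrays measured RNA of early thymic progenitors from C57Bl/6 mice aged 10 weeks. The sort gate took thymic cells with CD44 and kit but without CD25 or lineage markers. There were 3 arrays of Tcf1-/- and 3 of Tcf1-/+ mice. Titles and descriptions name the control Tcf1-/+, while its genotype field reads wild type, so the control genotype is unsettled and is called Tcf1-/+ here. The labels do not say how the Tcf1 allele was made or whether an array holds cells of 1 mouse or of pooled mice. Since Tcf7, which encodes Tcf1, had no named probe set in the annotation used, the labels were not checked on the targeted gene.

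In the thymus, Notch signals turn progenitors that can still form other blood lineages into T-cell precursors. Tcf1, an HMG box factor, and Gata3 are induced early in this process, and Bcl11b follows and closes the alternative fates. RUNX factors bound to their partner Cbfb, with Ets1, Myb, Gfi1, Sox4 and the chromatin organizer Satb1, act beside them at T-lineage enhancers. The sort gate takes cells before CD25 appears, a stage at which the full commitment programme is not yet on.

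None of the 10 factors passed limma's adjusted threshold of 0.05, and no probe set of the whole array did (0% of 45037, with 2917 at an unadjusted p under 0.05). Within that limit, the factors did not move as a block. Satb1 and Sox4 had lower levels in Tcf1-/- on every probe set above background, with log2 differences from -0.22 to -1.74 for Satb1 and from -0.76 to -1.65 for Sox4, leaving aside 1 Sox4 probe set whose Tcf1-/- arrays were all under background. Ets1 had higher levels on each of its 4 probe sets, by 0.95 to 1.26. Gata3, Bcl11b, the RUNX genes, Cbfb, Myb and Gfi1 had differences of 0.71 or less in size, and their genotypes overlapped on every probe set. Differences are in log2 units, Tcf1-/- minus Tcf1-/+ throughout, and an array level is the deposited log2 value of a probe set.

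**Figure D1:**
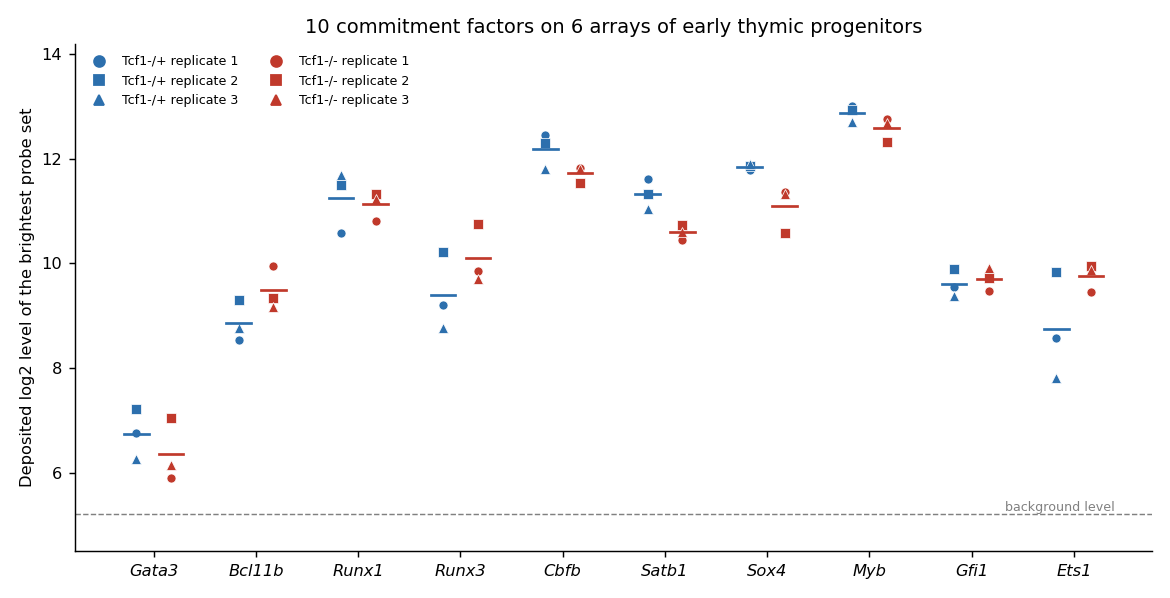
Each point is the deposited log2 level of a factor's brightest probe set on 1 array (y axis), with genotypes side by side for each of the 10 genes and bars at the means of 3 arrays. Levels of different genes come from different probes and cannot be set against each other; the genotypes separate for Satb1 and Sox4 and overlap for the other 8.

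The brightest probe set of a gene, by its mean over all arrays, was taken as its main readout. By this readout 6 factors had lower and 4 had higher means in Tcf1-/-, with a median difference of -0.21 against 0.04 over all genes. The genotypes did not overlap for 2 of the 10, beside 12.2% of all genes. Of the 35 probe sets, 33 had a mean above the background level of 5.21, the 95th percentile of the bacterial control probe sets. The 3 Tcf1-/- and 3 Tcf1-/+ arrays did not overlap on 10 of the 35, 8 of them lower and 2 higher in Tcf1-/-. Over all probe sets this held for 11.8%, of which 5.27% were lower and 6.51% higher. These 10 belong to 3 genes, and probe sets of a gene report on shared transcripts, so they are not 10 separate observations. In bulk RNA, fewer cells of a type and less RNA per cell cannot be told apart.

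Tcf1-/- replicate 2 stood apart from the other arrays. It correlated with them between 0.870 and 0.893 over all probe sets, and its log2 difference between the 3' and 5' control probe sets of Tfrc was 0.055, against -1.08 to -0.62 on the others. The mean level of 3 Y-linked genes was between 8.42 and 9.39 on Tcf1-/- replicates 2 and 3 and Tcf1-/+ replicate 2, and between 4.01 and 5.004 on the other 3 arrays. The gate's markers Kit and Cd44 were above background on every array, as was Ptprc. Il2ra, which encodes CD25 and which the gate selects against, also was. On its brightest probe set Il2ra had a mean level of 10.28 in Tcf1-/- and 9.59 in Tcf1-/+, with overlap. The other of its 2 probe sets had the opposite sign. Without Tcf1-/- replicate 2, the genotypes did not overlap on 14 of the 35 probe sets, beside 20.4% of all.

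**Figure D2:**
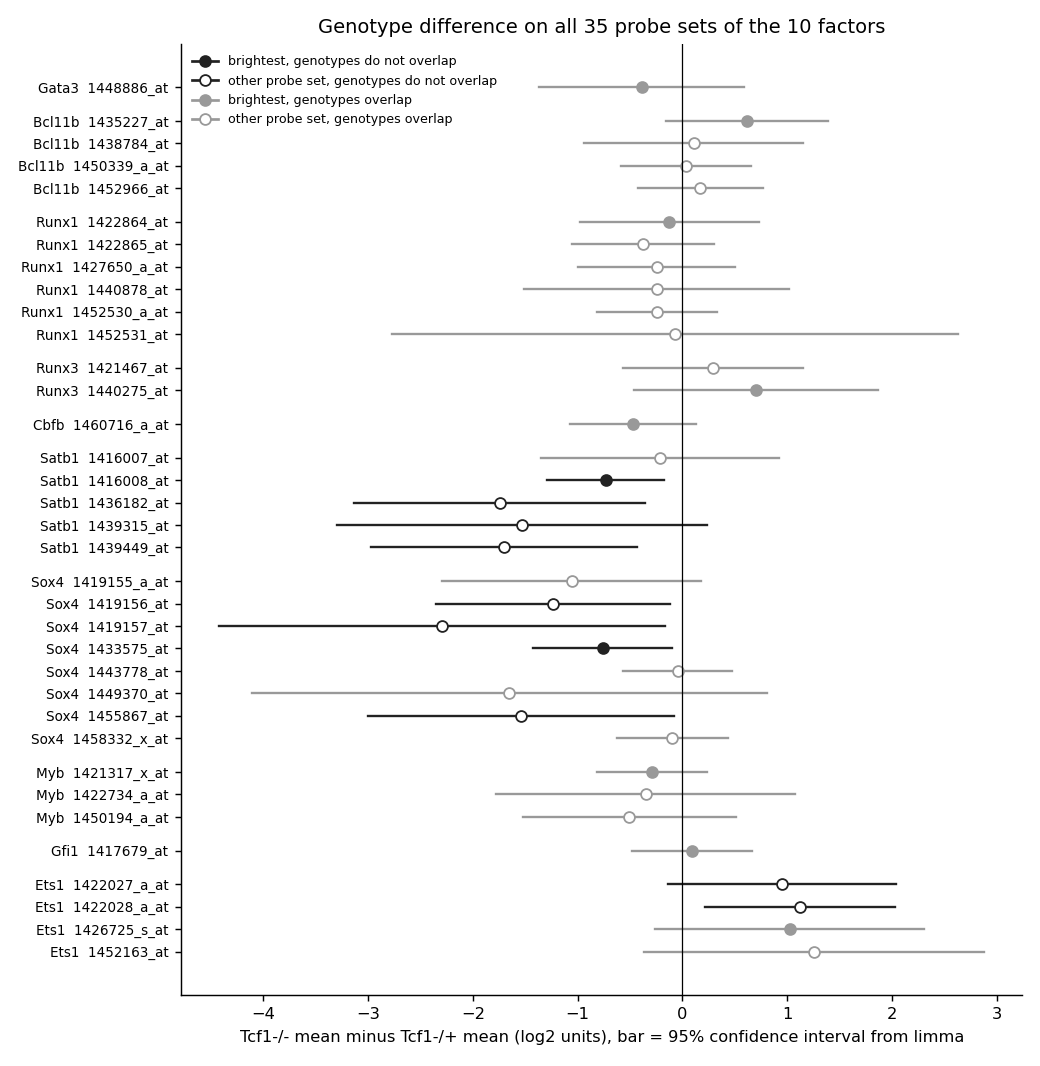
Points are the log2 differences (x axis) for each of the 35 probe sets, listed by gene on the y axis, with 95% confidence intervals from limma; filled points are the brightest probe set of a gene and dark points have genotypes that do not overlap. All dark points belong to Satb1, Sox4 and Ets1, and within each gene the probe sets above background lie on the same side of 0.

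Satb1 folds chromatin around lineage genes in thymocytes and is needed for their normal maturation. Its brightest probe set, 1416008_at, was at 10.44, 10.74 and 10.61 on the Tcf1-/- arrays and at 11.61, 11.34 and 11.04 on the Tcf1-/+ arrays. The highest Tcf1-/- array was thus under the lowest Tcf1-/+ array. The means were 10.60 ± 0.15 (SD, n = 3) and 11.33 ± 0.29 (SD, n = 3), a difference of -0.73 with a 95% interval of -1.29 to -0.17. That is a Tcf1-/- level of 0.602 times the control, with a limma adjusted p of 0.666. Under the 18 alternatives computed for this difference, it kept its sign and passed no adjusted threshold. The replicate block, the filters, the floor at background and limma's trend and robust settings left it at -0.73. These settings could not turn its sign.

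Of the other 4 Satb1 probe sets, 3 gave larger mean differences. On 1439449_at the Tcf1-/- arrays were at 8.05, 6.58 and 8.37 and the Tcf1-/+ arrays at 9.75, 8.92 and 9.44, a difference of -1.71 (SE 0.52, from limma as all SEs here). On 1436182_at they were at 7.26, 5.28 and 7.24 against 8.31, 8.56 and 8.14, a difference of -1.74 (SE 0.57). Both therefore had all Tcf1-/- arrays under all Tcf1-/+ arrays, and both were lowest on Tcf1-/- replicate 2. On 1439315_at the Tcf1-/- arrays were at 4.58, 7.42 and 6.71, and here replicate 1 was lowest, under background, and replicate 2 highest. Control levels were 7.93, 7.52 and 7.84. The groups stayed apart by less than on the brightest probe set, with a difference of -1.53 (SE 0.72). Without replicate 1 that difference was -0.70, and the one on 1436182_at was -1.09 without replicate 2. The smallest difference was on 1416007_at, designed on the same sequence record as the brightest probe set. It was at 8.60, 10.35 and 9.06 in Tcf1-/- and at 9.47, 9.71 and 9.47 in Tcf1-/+, so that replicate 2 was above every control array and the difference was -0.22 (SE 0.47). Without Tcf1-/- replicate 1 that difference was 0.16.

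The spread of Satb1 among the Tcf1-/- arrays was thus wider than among the controls on 4 of its 5 probe sets, and the order of the 3 Tcf1-/- arrays differed between probe sets. Centred within genotype, the Pearson correlation of probe set pairs over the 6 arrays ran from -0.92 to 0.84. This is given as a description of 10 pairs that share the arrays. The genotypes were thus apart on 4 of the 5 Satb1 probe sets, while the order of the arrays within a genotype was not shared.

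Sox4, like Tcf1 an HMG box factor, is expressed in lymphoid progenitors and supports their expansion. Its brightest probe set, 1433575_at, was at 11.37, 10.58 and 11.33 on the Tcf1-/- arrays and at 11.79, 11.86 and 11.91 on the Tcf1-/+ arrays. All control arrays lay above all Tcf1-/- arrays, and the controls were tight. The means were 11.09 ± 0.45 (SD, n = 3) and 11.85 ± 0.06 (SD, n = 3), a difference of -0.76 with a 95% interval of -1.42 to -0.10 and a limma adjusted p of 0.727. Without Tcf1-/- replicate 2, the lowest array, the difference was -0.50.

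Of the other 7 Sox4 probe sets, 5 were above background and all 5 had lower Tcf1-/- means. On 1455867_at the Tcf1-/- arrays were at 8.16, 7.32 and 8.31 and the Tcf1-/+ arrays at 10.63, 8.47 and 9.32, a difference of -1.54 (SE 0.60). On 1419156_at they were at 7.97, 7.73 and 8.25 against 10.12, 8.39 and 9.14, a difference of -1.23 (SE 0.46). The genotypes stayed apart on both, and Tcf1-/+ replicate 1 was the highest array and replicate 2 the lowest control. The same order of the controls was seen on 1419157_at, at 8.67, 5.32 and 6.31. Its Tcf1-/- arrays were at 3.87, 5.01 and 4.54, all under background, so the size of its difference of -2.29 (SE 0.87) is not well measured. With levels floored at background it was -1.56. On 1419155_a_at, with a difference of -1.06 (SE 0.51), only Tcf1-/- replicate 1, at 8.27, reached above the lowest control, at 8.10. These 4 differences leaned on Tcf1-/+ replicate 1: without it they were -0.96 on 1455867_at, -0.78 on 1419156_at, -1.34 on 1419157_at and -0.56 on 1419155_a_at.

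The remaining Sox4 probe set above background, 1449370_at, was the most scattered. It was at 8.10, 10.87 and 8.93 in Tcf1-/- and at 12.13, 11.54 and 9.18 in Tcf1-/+, with a difference of -1.65 (SE 1.01) and overlapping genotypes. Leaving out 1 array moved it to between -2.54 and -1.05, the ends without Tcf1-/+ replicate 3 and without Tcf1-/- replicate 1. Probe sets 1443778_at and 1458332_x_at stayed between 2.35 and 3.14 on all arrays, far under background, and report no Sox4 signal. Both were designed on 1 sequence record, which is not among those given for the other Sox4 probe sets. For 1455867_at no record was given. Pairs among 1419155_a_at, 1419156_at and 1455867_at correlated between 0.91 and 0.97 over the 6 arrays after centring within genotype. Pairs of 1433575_at with the other 5 ran from -0.74 to 0.34. The brightest probe set thus ordered the arrays of a genotype unlike the rest, while sharing their direction between genotypes.

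**Figure D3:**
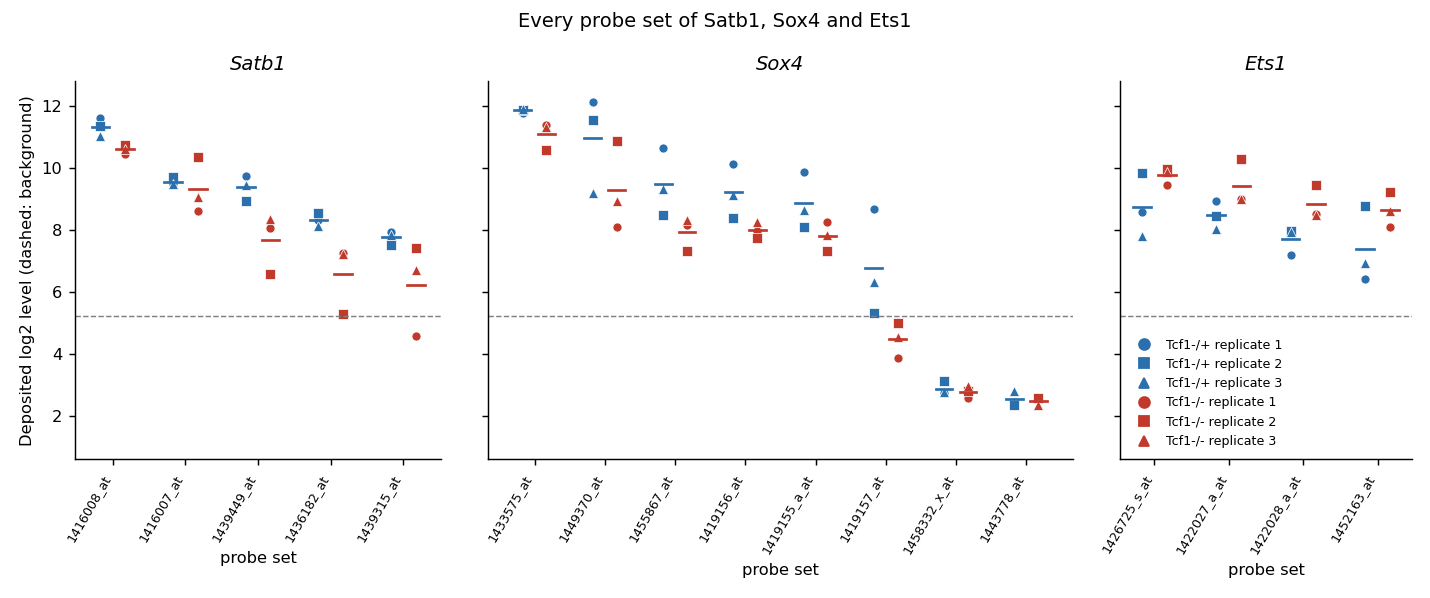
Deposited log2 levels (y axis) of every probe set of Satb1, Sox4 and Ets1 (x axis), with 1 symbol per array, bars at the means of 3 arrays and a dashed line at the background level of 5.21. Tcf1-/- symbols sit lower for Satb1 and Sox4 and higher for Ets1, and 2 Sox4 probe sets lie under the line on all arrays.

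Ets1, the founding ETS factor, binds next to RUNX proteins at T-cell receptor enhancers and is also required by natural killer and innate lymphoid cells in mice. It was the factor with the largest main difference. Its brightest probe set, 1426725_s_at, was at 9.46, 9.96 and 9.88 on the Tcf1-/- arrays and at 8.58, 9.83 and 7.82 on the Tcf1-/+ arrays. Tcf1-/+ replicate 2 was above Tcf1-/- replicate 1, so the genotypes overlapped. The means were 9.76 ± 0.27 (SD, n = 3) and 8.74 ± 1.02 (SD, n = 3), a difference of 1.02 with a 95% interval of -0.26 to 2.31 and a limma adjusted p of 0.838. The level in Tcf1-/- was 2.03 times that in the controls.

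The 2 Ets1 probe sets that separated the genotypes share a sequence record. On 1422028_a_at the Tcf1-/- arrays were at 8.52, 9.46 and 8.49 and the Tcf1-/+ arrays at 7.19, 7.97 and 7.93, a difference of 1.13 (SE 0.37). On 1422027_a_at they were at 8.99, 10.29 and 9.01 against 8.94, 8.46 and 8.03, a difference of 0.95 (SE 0.45), with a gap of less than 0.1 between the nearest arrays. On 1452163_at, designed on the record of the brightest probe set, they were at 8.08, 9.23 and 8.60 against 6.43, 8.78 and 6.92, a difference of 1.26 (SE 0.66). Tcf1-/+ replicate 2 was the highest control on this pair of probe sets and, narrowly, on 1422028_a_at. Without that array the difference on the brightest probe set was 1.57, and without Tcf1-/+ replicate 3 it was 0.56. On 1452163_at it ran from 0.78 without Tcf1-/+ replicate 1 to 1.96 without Tcf1-/+ replicate 2, and on 1422027_a_at it was 0.52 without Tcf1-/- replicate 2.

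Because the Y-linked level differed between arrays, genotypes were also set against each other within each level, with no test. Among the 3 arrays of high level, 2 of Tcf1-/- and 1 of Tcf1-/+, Ets1 differed by 0.086 on its brightest probe set, and among the 3 of low level by 1.26. On 1422028_a_at the same values were 1.00 and 0.96. Satb1 differed by -0.66 at high and by -0.88 at low level on its brightest probe set, and Sox4 by -0.91 and -0.47. On these probe sets Satb1 and Sox4 were lower, and Ets1 higher, in Tcf1-/- at both levels, and the size for Ets1 varied with the probe set and the level. Fitted with this level as a covariate, the brightest Ets1 probe set differed by 0.64.

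Of 11 measured members of a natural killer and innate lymphoid list, 0 passed the adjusted threshold, 7 had higher and 4 lower Tcf1-/- means, and the median difference was 0.071. The log2 of their summed level lay between 12.97 and 13.98 in Tcf1-/- and between 11.10 and 11.73 in Tcf1-/+. A summed level is weighted towards the brightest members. Over the list the genotypes did not overlap for 5 higher and 1 lower gene of 11, beside 12.2% of all genes. Id2, an antagonist of E proteins, and the granzyme gene Gzmb differed by 3.19 (SE 0.49) and 4.06 (SE 0.69). The costimulatory receptor gene Icos and the interleukin 18 receptor gene Il18r1 differed by 3.22 (SE 0.56) and 2.43 (SE 0.56). The natural killer genes Klrd1, Nkg7 and Eomes had the opposite sign, at -1.49 (SE 0.60), -0.67 (SE 0.52) and -0.75 (SE 0.68). The natural killer defining genes Ncr1 and Tbx21 had both means under background. A list of 6 progenitor markers held Kit and Cd44, which the gate selects for, Il2ra, which it selects against, and Ptprc, Flt3 and Cd34. Its summed level was between 13.15 and 13.43 in Tcf1-/- and between 13.50 and 13.61 in Tcf1-/+. Of the 6, 3 had higher and 3 lower Tcf1-/- means. Flt3 and Cd34 were lower on all Tcf1-/- arrays than on all Tcf1-/+ arrays, 2 of 6 beside 12.2% of all genes. Of 12 myeloid markers 10 had higher Tcf1-/- means (median 0.73), with summed levels from 13.21 to 14.10 against 12.90 to 14.45. Of 8 erythroid markers 6 had higher means (median 1.23), with sums from 10.51 to 12.50 against 10.22 to 12.26. All 9 stromal and epithelial markers had higher means (median 0.11), and their sums, from 12.16 to 12.61 against 11.38 to 12.06, did not overlap. Taken singly, 0 of these 9 separated the genotypes, beside 12.2% of all genes, and 3 had both means under background. The brightest of them, Pdgfrb, had means of 12.13 in Tcf1-/- and 11.47 in Tcf1-/+, with overlap. Of 8 markers of double-positive and mature T cells 5 were higher (median 0.30), of 9 B-lineage markers 6 (median 0.10) and of 9 dendritic markers 3 (median -0.50), with sums that overlapped in each. None of these markers passed the adjusted threshold. The part of these markers in the Satb1, Sox4 and Ets1 differences was not tested.

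Gata3, a zinc finger factor that T-cell specification requires, was read by 1 probe set. It was at 5.89, 7.04 and 6.14 on the Tcf1-/- arrays and at 6.76, 7.22 and 6.26 on the Tcf1-/+ arrays. Replicate 2 was the highest array of each genotype, and the genotypes overlapped. The means were 6.36 ± 0.61 (SD, n = 3) and 6.75 ± 0.48 (SD, n = 3), a difference of -0.39 with a 95% interval of -1.37 to 0.59 and a limma adjusted p of 0.919. It was -0.73 without Tcf1-/- replicate 2, -0.15 without Tcf1-/+ replicate 2 and -0.62 with the Y-linked covariate. Both means were less than 2 log2 units above background, and the interval does not settle a direction.

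Bcl11b, the zinc finger factor of commitment itself, had 4 probe sets. On the brightest, 1435227_at, the Tcf1-/- arrays were at 9.95, 9.34 and 9.16 and the Tcf1-/+ arrays at 8.54, 9.29 and 8.77. Only Tcf1-/+ replicate 2 reached into the Tcf1-/- range. The difference was 0.62 with a 95% interval of -0.15 to 1.39 and a limma adjusted p of 0.838. It was 0.38 without Tcf1-/- replicate 1, and -0.041 among the arrays of high against 1.29 among those of low Y-linked level. Taken over all 4 probe sets, it was 0.23 by their mean and 0.072 by their median. The others, 1438784_at, 1450339_a_at and 1452966_at, differed by 0.11 (SE 0.43), 0.037 (SE 0.25) and 0.17 (SE 0.24). On 1438784_at replicate 2 was highest in each genotype, at 8.02 and 7.93, with the other arrays between 6.85 and 7.02, so genotype made little of its spread. A Bcl11b signal above background was therefore present in both genotypes.

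A further rule took the genes of most similar pattern over the 6 arrays, whatever their level. It searched genes with a mean above background and a set minimum range over the arrays. The 3 most like Gata3 among 9001 genes were Zfp521, Exosc6 and Fcor, with Pearson correlations of 0.985, 0.976 and 0.975. The 3 most like Bcl11b were Actl10, 4930527J03Rik and Bud23, at 0.988, 0.978 and 0.976. With 6 arrays, 16 genes reached 0.95 for Gata3 and 11 for Bcl11b, so the order among them is loose.

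RUNX proteins bind DNA as heterodimers with Cbfb. Runx1 is needed to form blood stem cells and early T precursors, and Runx3 directs CD8 T-cell, natural killer and innate lymphoid fates. The brightest Runx1 probe set, 1422864_at, was at 10.82, 11.33 and 11.24 in Tcf1-/- and at 10.58, 11.50 and 11.68 in Tcf1-/+, a difference of -0.13 with a 95% interval of -0.98 to 0.73. The genotypes overlapped, and the direction turned when Tcf1-/- replicate 1 (0.029) or Tcf1-/+ replicate 3 (0.089) was left out. The other 5 Runx1 probe sets also had lower Tcf1-/- means, by -0.070 to -0.37, with overlap on each. The largest was on 1422865_at, at 10.83, 9.99 and 10.72 against 10.78, 10.97 and 10.92, where the difference was -0.11 without Tcf1-/- replicate 2.

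Runx3 had higher Tcf1-/- means on both of its probe sets. The brighter, 1440275_at, was at 9.85, 10.76 and 9.69 in Tcf1-/- and at 9.21, 10.22 and 8.76 in Tcf1-/+. Replicate 2 was again the highest array of each genotype, and the groups overlapped through Tcf1-/+ replicate 2. The difference was 0.71 with a 95% interval of -0.46 to 1.87 and a limma adjusted p of 0.885. It ran from 0.38 without Tcf1-/- replicate 2 to 1.12 without Tcf1-/+ replicate 2, and was 0.39 without Tcf1-/+ replicate 3. It was 0.41 with the Y-linked covariate and 0.0093 among the arrays of high Y-linked level. On 1421467_at the difference was 0.29 (SE 0.35), or 0.048 without Tcf1-/- replicate 2, and there replicate 2 was the lowest control, at 6.62.

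Cbfb was at 11.82, 11.53 and 11.82 in Tcf1-/- and at 12.46, 12.31 and 11.81 in Tcf1-/+ on its single probe set. Tcf1-/+ replicate 3 lay at the level of the other genotype, and the groups overlapped. They differed by -0.47 with a 95% interval of -1.07 to 0.13 and a limma adjusted p of 0.840. Thus Runx1 and Cbfb had lower means and Runx3 higher ones, each by less than its interval allows to be told from 0.

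Myb, a proto-oncogene factor of progenitors and immature thymocytes, gave its brightest signal on 1421317_x_at. It was at 12.77, 12.33 and 12.69 in Tcf1-/- and at 13.01, 12.93 and 12.72 in Tcf1-/+, a difference of -0.29 with a 95% interval of -0.81 to 0.24. Tcf1-/- replicate 1 lay above Tcf1-/+ replicate 3, and without Tcf1-/- replicate 2 the difference was -0.15. The suffix of this probe set marks probes that may also bind other transcripts. Its other probe sets differed by -0.35 (SE 0.59) on 1422734_a_at and by -0.50 (SE 0.41) on 1450194_a_at. The low arrays were not the same ones, Tcf1-/- replicate 2 at 8.90 on the former and Tcf1-/- replicate 3 at 11.26 on the latter. Without those arrays the differences were 0.19 and -0.053.

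Gfi1, a zinc finger repressor that restrains myeloid and innate programmes, had the smallest main difference of the 10. Its probe set was at 9.47, 9.72 and 9.90 in Tcf1-/- and at 9.55, 9.90 and 9.37 in Tcf1-/+. The groups covered nearly the same range. The difference was 0.092 with a 95% interval of -0.48 to 0.67, so changes beyond about these bounds are outside the interval.

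Of the 7 factors with several probe sets above background, all 7 had the same sign on each of those probe sets. The share of all genes for which this holds was not computed. Some of these differences were near 0, such as 0.037 for Bcl11b on 1450339_a_at and -0.070 for Runx1 on 1452531_at. For Satb1, Sox4 and Ets1 this held with differences of at least 0.73 in size on 14 of 15, and for Bcl11b, Runx1, Runx3 and Myb with differences of 0.71 or less. This cut was taken from the same values. The sizes at its edges, 0.71 for Runx3 (SE 0.48) and -0.73 for Satb1 (SE 0.23), cannot be told apart.

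RefSeq promoter windows of 300 bases (GRCm38.p6), from 250 before to 50 after a start, were held for 9 of the 10 genes, in 16 windows; Ets1 was not among them. TCF/LEF proteins, the family of Tcf1, recognise words that begin with CTTTG. The word CTTTG followed by AA, AT, TA or TT was searched on both strands. It occurred in 4 of the 16 windows, beside 16.9% of all 32851 windows of the same length. The 4 were the Bcl11b window, overlapping Satb1 windows 4 and 5, which share 1 site, and the Myb window, where the word lies after the start. Satb1 had windows 1 to 5, and windows 1, 2 and 3 held 0 of these words. The upstream bases of the factors with the clearest separation and of Bcl11b are shown. For Satb1 these are from window 4, a window that holds the word. Bases run 5' to 3' on the gene's strand, with any TCF/LEF word in capitals.
Satb1, window 4, chr17:51812185-51812434, minus strand: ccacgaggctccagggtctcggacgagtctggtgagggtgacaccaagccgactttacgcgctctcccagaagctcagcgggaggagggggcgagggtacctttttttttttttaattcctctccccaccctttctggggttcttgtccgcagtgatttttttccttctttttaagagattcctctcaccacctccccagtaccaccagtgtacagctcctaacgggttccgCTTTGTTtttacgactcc
Sox4, chr13:28953700-28953949, minus strand: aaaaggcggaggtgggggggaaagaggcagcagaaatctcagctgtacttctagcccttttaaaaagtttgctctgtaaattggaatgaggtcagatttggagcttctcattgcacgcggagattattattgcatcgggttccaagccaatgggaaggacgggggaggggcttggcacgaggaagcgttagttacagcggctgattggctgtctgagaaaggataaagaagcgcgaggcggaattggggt
Bcl11b, chr12:108003415-108003664, minus strand: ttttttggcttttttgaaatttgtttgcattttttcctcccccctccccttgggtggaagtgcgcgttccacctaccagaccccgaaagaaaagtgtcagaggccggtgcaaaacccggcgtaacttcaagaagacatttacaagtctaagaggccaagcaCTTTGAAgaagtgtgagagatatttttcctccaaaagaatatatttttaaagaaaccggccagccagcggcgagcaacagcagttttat
The word CTTTGTT starts at base 233 of the Satb1 stretch and CTTTGAA at base 162 of the Bcl11b stretch, counted from the 5' end. The Sox4 stretch holds none. A relation of these words to the genotype differences was not tested. The RUNX word TGTGGT, searched the same way, occurred in 2 of the 16 windows, 1 each of Runx1 and Runx3, beside 16.8% of all windows. The GATA word AGATAA or its variant TGATAA occurred in 0 of 16, beside 18.6%, the ETS word GGAAGT in 6 of 16, beside 23.8%, and the E-box CAGCTG or its variant CAGGTG in 7 of 16, beside 32.9%. None of the searched words contains another. A match describes letters in these windows and is not a bound site.

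The 10 factors were set beside 4 lists of related genes, each read by its brightest probe set. Of 28 measured other T-lineage regulators, 0 passed limma's adjusted threshold in either direction, beside 0% of all genes. Their means were higher in Tcf1-/- for 11 and lower for 17, with a median of -0.11. Lef1, the relative of Tcf1, had a Tcf1-/- mean of 7.65 ± 0.12 (SD, n = 3) against 8.56 ± 0.13 (SD, n = 3), and differed by -0.91 (SE 0.19). Tox2, an HMG box factor, differed by 1.87 (SE 0.41), the ligand-activated factor Ahr by 1.47 (SE 0.41) and the forkhead factor Foxp1 by -0.71 (SE 0.27). These 4 were chosen for their small p. Over the list the genotypes did not overlap for 2 higher and 4 lower genes of 28, beside 12.2% of all genes. Of 8 Foxp1 probe sets, 7 had this sign.

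Of 20 progenitor regulators that commitment turns off, 0 passed, with 7 higher and 13 lower means and a median of -0.17. Hoxa9, a homeobox factor of stem cells, differed by -0.99 (SE 0.39) and Bcl11a, the relative of Bcl11b expressed before commitment, by -0.52 (SE 0.21), both without overlap. Over the list the genotypes did not overlap for 1 higher and 2 lower genes of 20, beside 12.2% of all genes. Irf8, a factor of dendritic and monocyte precursors, differed by -1.17 (SE 0.55) and Mef2c by -0.67 (SE 0.38), both with overlap. The other of the 2 Irf8 probe sets had the opposite sign. The differences of Bcl11a and of Bcl11b, 0.62 on its brightest probe set, had opposite signs.

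Of 18 T-lineage target and effector genes, 0 passed, with 6 higher and 12 lower means and a median of -0.20. The 4 of smallest unadjusted p were split. Il7r, the interleukin 7 receptor, differed by 2.00 (SE 0.40) and Thy1, a surface glycoprotein, by 2.48 (SE 0.52). Cd28, a costimulatory receptor, differed by -2.97 (SE 0.69). Its Tcf1-/- mean was under background. Dntt, which adds untemplated bases at rearranging receptor genes, differed by -1.36 (SE 0.33). Over the list the genotypes did not overlap for 2 higher and 5 lower genes of 18, beside 12.2% of all genes.

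Of 18 cofactors of RUNX and GATA proteins, 0 passed, with 5 higher and 13 lower means, a median of -0.16 and 0 genes without overlap, beside 12.2% of all genes. Cbfa2t3, a co-repressor, differed by -0.64 (SE 0.31), Ldb1, which bridges GATA and LIM-domain complexes, by -0.78 (SE 0.38), the Groucho co-repressor gene Tle4 by -1.39 (SE 0.77) and Rcor1 by -0.31 (SE 0.23). For Cbfa2t3, Tle4 and Rcor1, further probe sets disagreed in sign. Over all genes the median was 0.04, and 45.7% had a lower Tcf1-/- mean.

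**Figure D4:**
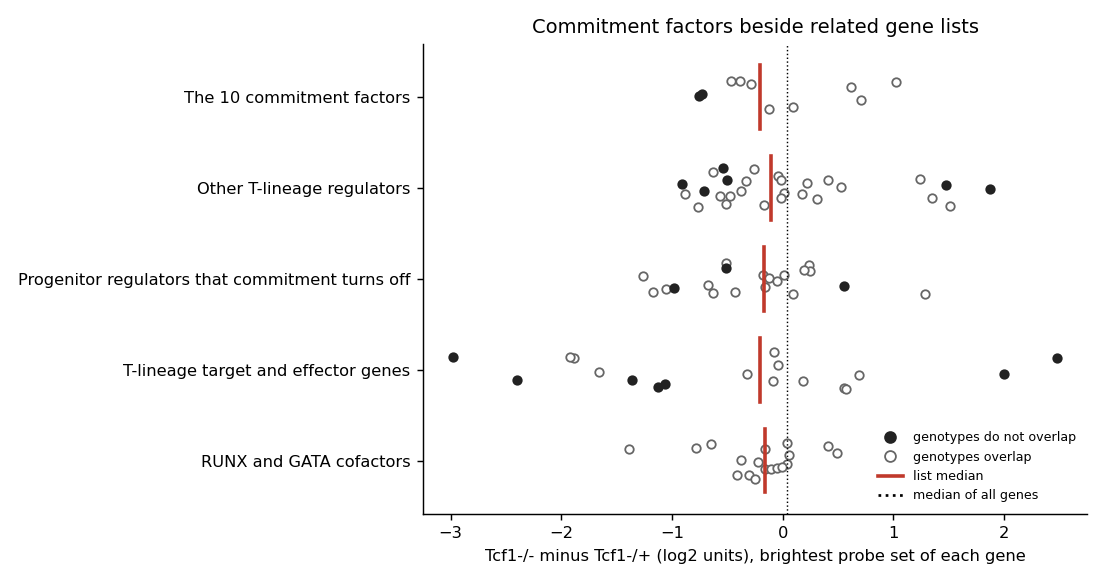
Each point is the log2 difference between genotypes (x axis) of 1 gene's brightest probe set, in the 10 factors and in 4 lists (y axis); dark points have genotypes that do not overlap, red bars are list medians and the dotted line is the median of all genes. All 5 medians lie between -0.21 and -0.11, and the target and effector genes spread widest, from -2.97 to 2.48.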

How the data were processed

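Per the labels' protocols, the mean yield was 3 ng of total RNA for 1000 sorted cells, and the RNA was amplified (Ovation Pico WTA) and labelled with biotin. The authors deposited log2 values per probe set, and their summary and normalization methods are not given in the sources used here. That the scale is log2 rests on the range of 2.15 to 14.8, and medians of the arrays ran from 5.80 to 5.87. No further normalization was done. Of 45101 probe sets, 64 controls were left out; 34945 of the rest had 1 symbol. The 2 genotypes were fitted on all 6 arrays without covariates (two-sided lmFit and eBayes of limma 3.58.1, R 4.3.3), with Benjamini-Hochberg adjustment over all 45037 probe sets; the fit was tested on simulated data. Exact permutation of 3 against 3 cannot go below 0.1 and was not used. P-values measure the spread between samples called biological replicates. A summed level is the log2 of summed unlogged values. Members, lists and alternatives were chosen with earlier results of these data known. Named genes are all 10 members, up to 4 genes of smallest unadjusted p per pathway list, and the 3 most alike to Gata3 and Bcl11b; the marker genes named were chosen after their values were seen. Alternatives were the replicate block, normalization, filters, weights, covariates, probe set choice and leaving out each array. The number of arrays limits the precision. Columns not used numbered 0.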

Additional observations from a re-analysis of the deposited data

How the results depend on the processing

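No alternative brought any member, or any probe set of the array, past limma's adjusted threshold, and the count stayed at 0. Between 1990 and 3487 probe sets had an unadjusted limma p under 0.05 (2917 as reported). The 1990 came from the filter for means above background, which tested 28005 probe sets where the main fit tested 45037. Of 575 recomputed single differences, 547 kept their sign and 28 did not. The replicate block, the filter for means above background and limma's trend and robust settings change the error of a difference and not its size. Signs kept under these settings were fixed in advance and are part of the 547. With the replicate block the counts were also 0, with 3074 probe sets at an unadjusted p under 0.05 and no other change of a call. Deviations of same-numbered arrays correlated at 0.030, 0.045 and 0.012, and those of the other pairs between -0.090 and 0.061. Such values cannot settle whether same-numbered arrays were handled together, so the pairing of the samples is unknown. As a covariate, the Y-linked level turned the differences to -0.037 for Gfi1, -0.16 for Bcl11b on 1438784_at and 0.026 for Sox4 on 1443778_at. With array weights they turned to -0.018 on 1438784_at and -0.0092 on 1450339_a_at, both of Bcl11b. With the Tfrc difference as a covariate they turned to -0.0056 on 1438784_at and -0.092 on 1450339_a_at of Bcl11b, 0.0099 for Runx1 on 1440878_at and 0.029 for Myb on 1422734_a_at. Leaving out each array gave -0.46 to 0.089 for Runx1, -0.56 to 0.17 on its probe set 1440878_at and -0.89 to 0.98 on 1452531_at. It gave -0.025 to 0.24 for Gfi1, -0.23 to 0.45 and -0.12 to 0.23 for Bcl11b on 1438784_at and 1450339_a_at, and -0.72 to 0.16 for Satb1 on 1416007_at. It gave -0.88 to 0.19 for Myb on 1422734_a_at, and -0.14 to 0.095 and -0.18 to 0.031 for Sox4 on 1443778_at and 1458332_x_at. The causes were not tested. Floored at background, 1443778_at and 1458332_x_at had no difference to give. The count of member probe sets without overlap was 10 of 35 as reported, beside 11.8% of all probe sets. It was 9 to 10 under other scalings, filters and the floor, chosen after seeing the data. The share of all probe sets was then 7.75% with the floor and 11.5% to 12.3% with the others. The filters tested 33 or 32 member probe sets. The count was 11 to 16 when 1 array was left out, where fewer arrays also let more of all probe sets separate (20.4% to 25.2%). It was 16 without Tcf1-/- replicate 1 and 16 without Tcf1-/+ replicate 2. Satb1, Sox4 and Ets1 kept their sign on the brightest probe set under all 18 alternatives computed for each, between -1.33 and -0.59, -1.24 and -0.50, and 0.56 and 1.57. These 18 include the settings that could not turn a sign.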

Other observations

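Runx1 probe set 1452531_at, whose genotype means differed by -0.070, split the arrays across genotypes: it was at 7.17 on Tcf1-/- replicate 3 and 7.70 on Tcf1-/+ replicate 1, and between 4.399 and 5.04, under background, on the other 4. The probe set 1452530_a_at of the same sequence record showed no such split, with levels between 7.82 and 8.49 on all 6 arrays.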
